A study of Mus musculus with 2 samples.

Results

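The nuclear genes of respiratory complexes II to V were examined in differentiating 3T3-L1 cells after knockdown of Phf21a, set against cells given a control siRNA. The members were the probe sets annotated to a single gene whose symbol names a subunit or assembly factor of succinate dehydrogenase (Sdha to Sdhd), a complex III subunit (Uqcr), a numbered cytochrome oxidase gene (Cox), an ATP synthase gene (Atp5), Atpif1, Cyc1 or Cycs. This gave 123 of the 45101 probe sets on the array, standing for 61 of 18193 genes. By function, 8 of the genes belong to complex II with its assembly factors, 10 to complex III with cytochrome c, 16 to the subunits of complex IV, 9 to the assembly factors of complex IV and 18 to complex V. A probe set shared by Cox14 and a second gene (signals of 3440 in Phf21a siRNA cells and 3602 in control siRNA cells) was left out by the single-gene rule.

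3T3-L1 is a mouse preadipocyte line that can be induced to become fat-cell-like. Cells of both groups were kept in 25 mM glucose with 10% serum, transfected with the Phf21a siRNA or with siGL3, a control siRNA, given the differentiation agents (3-isobutyl-1-methylxanthine, dexamethasone and insulin) after 24 h, and collected 24 h after that switch. Phf21a codes for BHC80, which reads histone tails within the corepressor complex of the demethylase LSD1. With 1 array in each group there is no replicate error, and neither a test nor a p-value is given. The comparison describes 2 arrays, a single time point and 1 siRNA against Phf21a.

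The respiratory chain passes electrons from fuel molecules to oxygen and uses the energy to pump protons across the inner mitochondrial membrane. Complex II takes electrons from succinate, complex III hands them to the mobile protein cytochrome c, and complex IV, cytochrome oxidase, gives them to oxygen. Complex V, the ATP synthase, lets the protons flow back and makes ATP. Complexes III, IV and V also contain subunits encoded in mitochondrial DNA, which the symbol rule does not take in, so the values below concern nuclear genes. White fat cells gain mitochondria as they differentiate, and brown fat and muscle use their own versions of some complex IV subunits.

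Signals are MAS5 values on a linear scale. A probe set was called detected when the higher of its 2 signals reached 51.3, the median of all signals, and signals under 12.9, the 25th percentile, were raised to that floor before log2 was taken. Log2 ratios are Phf21a siRNA over control siRNA, and the brightest detected probe set stood for its gene, with probe sets ending in _x_at used only where a gene had no other. A number given in parentheses after a gene's signals is its log2 ratio. The local spread given after ± is the 16th-to-84th percentile width of log2 ratios in the 1000 detected genes of most similar signal, divided by 2. It includes any true differences and is not the spread between cultures. The Phf21a signal itself was 306 in Phf21a siRNA cells and 768 in control siRNA cells, a log2 ratio of -1.33 ± 0.52. The median signal was 49.5 on the Phf21a siRNA array and 53.0 on the control siRNA array.

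Directions depend on what is held equal between the arrays. The deposited scaling gives both arrays the same trimmed mean signal of 500. Spiked poly-A control RNAs had a median log2 ratio of 0.73 over 24 probe sets, and hybridisation controls one of 0.23 over 18 probe sets. Scaled to the poly-A controls, the median of all detected genes was -0.71, and scaled to the hybridisation controls it was -0.21, against 0.03 on the deposited scale. "Higher" and "lower" below therefore mean higher or lower on the deposited scale, that is, relative to the bulk of transcripts. Fewer cells of a type and less RNA per cell cannot be told apart in such bulk samples.

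Markers of the labelled cell type were present. Of the preadipocyte and fibroblast markers 7 of 7 with a probe set were detected, with vimentin (Vim) at 29961 in Phf21a siRNA cells and 27291 in control siRNA cells. Of 9 adipocyte markers with a probe set 6 were detected. Fabp4 (5849 in Phf21a siRNA cells and 3502 in control siRNA cells) and Pparg (814 with Phf21a siRNA and 512 with control siRNA) were higher by 1.5-fold or more, and the preadipocyte marker Dlk1 (5940 with Phf21a siRNA and 12290 with control siRNA) was lower by that much, while Cebpa and the late markers Adipoq and Cidec were not detected. Lpl (3253 with Phf21a siRNA and 3614 with control siRNA), Cebpb (7743 and 7761), Cebpd (864 and 809) and Cd36 (53.0 and 37.5) differed by less than 1.5-fold. So did the other detected preadipocyte and fibroblast markers. The 5 leukocyte markers summed to 662 in Phf21a siRNA cells and 329 in control siRNA cells, with Cd68 (119 with Phf21a siRNA and 64.0 with control siRNA) and Csf1r (452 with Phf21a siRNA and 200 with control siRNA) higher by 1.5-fold or more and Ptprc, the pan-leukocyte gene, undetected (12.2 with Phf21a siRNA and 6.87 with control siRNA). Of 4 neuron markers only Tubb3 (84.5 with Phf21a siRNA and 171 with control siRNA) was detected. The part of differentiation state and of other cells in the member values was not tested.

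Most members were bright and differed by less than 1.5-fold between the arrays. Of the 61 genes 57 were detected, and their median log2 ratio was 0.12, against 0.03 over all 11301 detected genes. On the deposited scale 41 of the 57 lay above 0, where 52.2% of all detected genes did; scaled to the poly-A controls 0 of 56 did, and scaled to the hybridisation controls 17 of 57. Relative to the median of all genes, the members' median was between 0.07 and 0.14 under the deposited scale and all 12 alternatives of normalization, floor, probe set choice and filter. Median centring and scaling to control RNAs shift all genes alike, so those alternatives could hardly change this difference. Of the 57, 4 were higher by 1.5-fold or more, where 15.1% of all detected genes were, and 3 were lower by that much, where 13.9% were. The log2 ratio exceeded the local spread in 12 of 57, where it did in 33% of all detected genes. Those higher were Cox7a1, Cox20, Sdhaf4 and Atp5e, and those lower were Atp5g1, Cox15 and Cox8c. Scaled to the poly-A controls, 0 of 56 were higher by 1.5-fold or more and 29 were lower by that much, where 2.04% and 60.3% of all genes were.

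**Figure D1:**
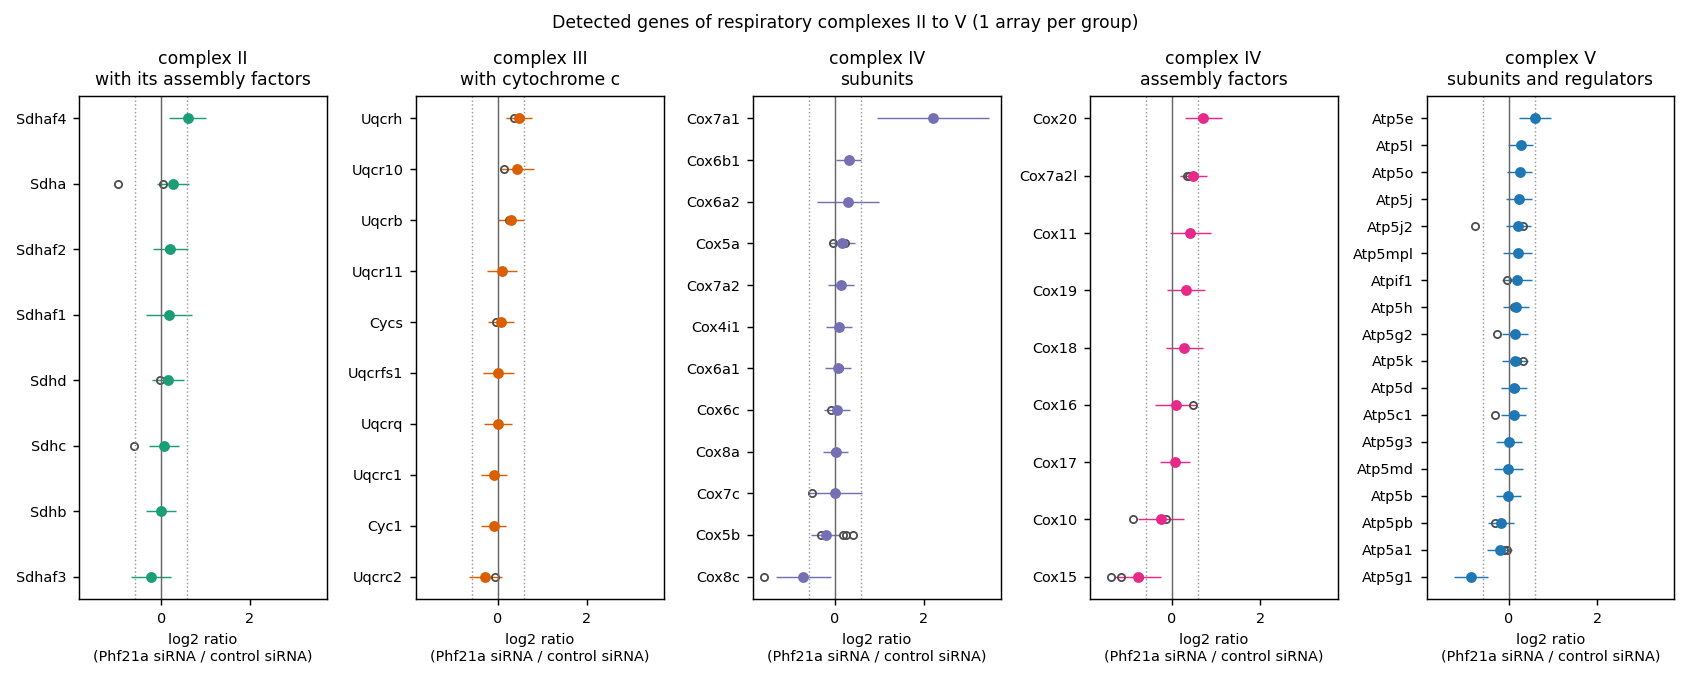
Log2 ratio (Phf21a siRNA over control siRNA, deposited scale, x axis) of the 57 detected member genes, 1 panel per group, ordered by ratio. Filled points with bars are the representing probe set ± local spread, open circles are other detected probe sets of the gene, and dotted lines mark 1.5-fold; 50 of 57 genes sit between the dotted lines, most of them slightly right of 0, and scaling to the poly-A controls moves bright genes left by 0.73.

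The brightest members held together more tightly than other genes of that brightness. Of the 57, 40 members had a mean log2 signal of at least 12, and their log2 ratios ran from -0.28 to 0.59 with a median of 0.10. Of the 1090 detected genes that bright, the range was -1.84 to 1.22 and the median 0.04. The scatter of the 40 (16th to 84th percentile, divided by 2) was 0.13, against 0.30 for the 1090. Of the 40, 30 lay above 0, where 55.1% of genes that bright did, and 5 exceeded their local spread, where 29.6% did. Of the 40, 1 was higher by 1.5-fold or more, Atp5e, and 0 were lower by that much, where 4.86% and 4.04% of genes that bright were. The 17 dimmer members had a scatter of 0.48, against 0.57 for the 10211 detected genes under that brightness. These 17 held the other 6 genes past 1.5-fold, 3 higher and 3 lower. Of the 10211 genes, 1654 were higher and 1526 lower by that much.

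**Figure D2:**
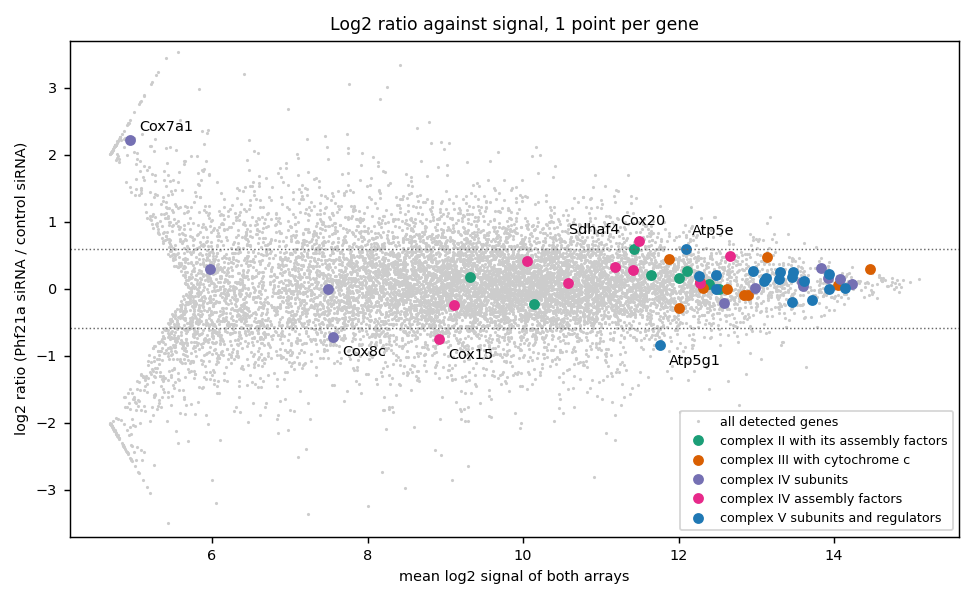
Log2 ratio (Phf21a siRNA over control siRNA, deposited scale, y axis) against the mean log2 signal of both arrays (x axis), with 1 point per gene. Grey points are the 11301 detected genes, coloured points the 57 members by group, and dotted lines mark 1.5-fold; the 40 members above a log2 signal of 12 form a narrow band between -0.28 and 0.59, and the 7 labelled genes lie past 1.5-fold.

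Assembly factors of complex IV had the highest median log2 ratio, 0.28 over 9 genes, followed by complex II with its assembly factors (0.16 over 8), complex V (0.15 over 18), complex IV subunits (0.08 over 12) and complex III with cytochrome c (0.03 over 10). Under scaling to the poly-A controls all 5 medians were below 0, from -0.69 for complex III to -0.44 for the complex IV assembly factors. Relative to all genes, the median of complex IV assembly factors was between 0.228 and 0.358 over 13 settings, and that of complex III lay between -0.02 and 0.04, above 0 in 9 of 13. Settings that shift all genes alike, such as median centring and scaling to control RNAs, could hardly change these differences.

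**Figure D3:**
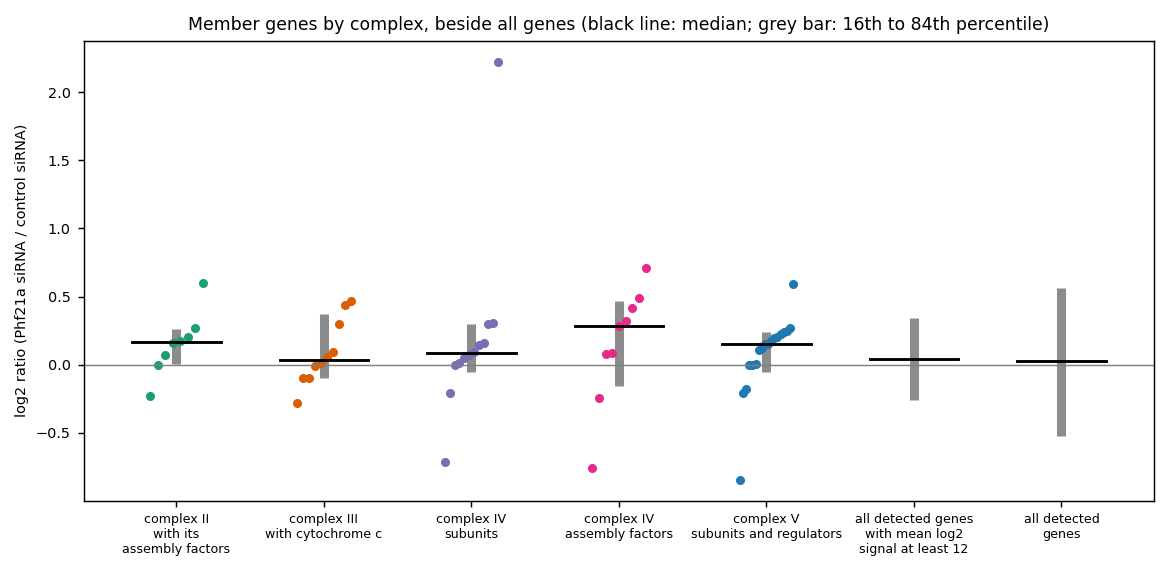
Log2 ratios (Phf21a siRNA over control siRNA, deposited scale, y axis) of detected member genes by group, beside the 1090 detected genes with a mean log2 signal of at least 12 and all 11301 detected genes. Points are member genes, black lines medians and grey bars the 16th to 84th percentile; the medians of the 5 groups lie between 0.03 and 0.28 here and below 0 when scaled to the poly-A controls, and the 7 genes past 1.5-fold stand outside their groups' bars.

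In complex II the 4 enzyme subunits sat near 0 and 1 assembly factor was higher. Sdha, the flavoprotein that oxidises succinate, had signals of 4825 in Phf21a siRNA cells and 4001 in control siRNA cells (0.27 ± 0.36). Sdhb, the iron-sulfur protein, had 5880 with Phf21a siRNA and 5889 with control siRNA (-0.0022 ± 0.33). These 2 catalytic subunits therefore differed by less than their local spread. The membrane anchors Sdhc (5490 with Phf21a siRNA and 5234 with control siRNA, 0.07) and Sdhd (4339 with Phf21a siRNA and 3895 with control siRNA, 0.16) did too, although a second probe set of Sdhc gave 1751 in Phf21a siRNA cells and 2678 in control siRNA cells (-0.61). A dim probe set of Sdha, at 27.5 in Phf21a siRNA cells and 54.1 in control siRNA cells, also went the other way.

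The assembly factors of complex II attach flavin to Sdha and help the iron-sulfur clusters of Sdhb to form. Sdhaf4, which binds Sdha once its flavin is in place (Entrez gene 68002), had 3377 in Phf21a siRNA cells and 2234 in control siRNA cells, a 1.51-fold difference (0.60 ± 0.42) on its only probe set. It was just past 1.5-fold, and it was under that size with loess (0.55) and with hybridisation scaling (0.37) and turned to -0.13 with poly-A scaling. Sdhaf2, which attaches the flavin, had 3452 in Phf21a siRNA cells and 2992 in control siRNA cells (0.21 ± 0.40). Sdhaf1 (675 with Phf21a siRNA and 599 with control siRNA, 0.17) and Sdhaf3 (1042 with Phf21a siRNA and 1223 with control siRNA, -0.23 ± 0.46), which serve the iron-sulfur subunit, lay on opposite sides of 0 and within their spread.

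Of the 5 small subunits of complex III, 3 were higher beyond their local spread on the deposited scale, where 33% of all detected genes and 29.6% of genes with a mean log2 signal of at least 12 were beyond theirs in either direction, while its core and catalytic proteins lay between -0.28 and 0.0095; scaled to the poly-A controls both kinds were below 0. Uqcrh, the hinge protein that helps cytochrome c1 meet cytochrome c, had 10626 in Phf21a siRNA cells and 7698 in control siRNA cells (0.46 ± 0.29), and its second probe set gave 0.37. Uqcr10 had 4364 in Phf21a siRNA cells and 3224 in control siRNA cells (0.44 ± 0.37, a dimmer probe set 0.14). Uqcrb had 25109 in Phf21a siRNA cells and 20444 in control siRNA cells (0.30 ± 0.29, second probe set 0.24). The other 2 small subunits, Uqcr11 (5131 with Phf21a siRNA and 4816 with control siRNA, 0.09) and Uqcrq (6277 with Phf21a siRNA and 6305 with control siRNA, -0.0064), were within their spread, and Uqcrq lay in the range of the core and catalytic proteins.

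The proteins that form the core or carry electrons were slightly lower or level. Uqcrc2, a core protein, had 3726 in Phf21a siRNA cells and 4537 in control siRNA cells (-0.28 ± 0.37, second probe set -0.07). Its partner Uqcrc1 had 7342 in Phf21a siRNA cells and 7866 in control siRNA cells (-0.10 ± 0.29), and Cyc1, cytochrome c1, had 7090 with Phf21a siRNA and 7603 with control siRNA (-0.10 ± 0.29). Each of these was within its spread. The Rieske iron-sulfur protein Uqcrfs1 (5121 with Phf21a siRNA and 5087 with control siRNA, 0.0095) and cytochrome c, Cycs (17233 with Phf21a siRNA and 16552 with control siRNA, 0.06, with 3 probe sets from -0.04 to 0.07), were level. The median of the 5 small subunits was 0.30, that of the 2 core proteins -0.19 and that of the 2 catalytic proteins -0.05, on few genes each. These kinds of subunit were set side by side after the values were seen.

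The ubiquitous subunits of complex IV were bright, apart from Cox7c, and differed by less than 1.5-fold. Over 9 of them the median log2 ratio was 0.07, with 7 above 0 on the deposited scale, where 52.2% of all detected genes were. Medians were below 0 for the subunits when scaled to either set of control RNAs. Cox6b1, which faces the space where cytochrome c docks, was highest, with 16164 in Phf21a siRNA cells and 13060 in control siRNA cells (0.31 ± 0.29, second probe set 0.32). Cox5a (16413 with Phf21a siRNA and 14698 with control siRNA, 0.16), Cox4i1 (12681 with Phf21a siRNA and 11864 with control siRNA, 0.10) and Cox6c (12575 with Phf21a siRNA and 12182 with control siRNA, 0.05) were within their spread. Cox5b was lowest at 5696 in Phf21a siRNA cells and 6578 in control siRNA cells (-0.21 ± 0.33), but its 5 detected probe sets ran from -0.31 to 0.40 and 3 of them were above 0, all of them ending in _x_at. Cox7c was represented by a dim probe set at 180 on both arrays, so it says little about that subunit.

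Several complex IV subunits exist in a widely expressed version and in a version kept to certain tissues. Signals of different probe sets cannot be set against each other, so only the ratio of each version is compared between the arrays. For subunit 6a, the widely expressed Cox6a1 had 19639 in Phf21a siRNA cells and 18659 in control siRNA cells (0.07), and the heart and muscle version Cox6a2 had 69.4 with Phf21a siRNA and 56.5 with control siRNA (0.30 ± 0.69). For subunit 7a, Cox7a2 had 18108 in Phf21a siRNA cells and 16392 in control siRNA cells (0.14). Its muscle and brown fat version Cox7a1 (Entrez gene 12865) had 66.7 in Phf21a siRNA cells and 14.3 in control siRNA cells. The Cox7a1 log2 ratio of 2.22 ± 1.26 rests on a control signal under the detection limit, and it was 0.38 with both signals raised to that limit. For subunit 8, Cox8a had 8145 in Phf21a siRNA cells and 8066 in control siRNA cells (0.01), while the muscle and brown fat version Cox8b was undetected at 4.52 with Phf21a siRNA and 1.61 with control siRNA.

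Beside Cox7a1, the detected muscle and brown fat markers lay on both sides of 0. The 9 muscle markers summed to 3396 in Phf21a siRNA cells and 1436 in control siRNA cells, and 4 were detected. Of these 1 was higher by 1.5-fold or more, and Ckm (22.5 with Phf21a siRNA and 55.5 with control siRNA) and Actn2 (4.13 with Phf21a siRNA and 52.7 with control siRNA) were lower by that much. Ckm and Actn2 reached the detection limit of 51.3 only in control siRNA cells, and narrowly. Tnnt2 and the brown fat marker Ppargc1a, both higher, reached it on both arrays. So did Des, at 76.9 in Phf21a siRNA cells and 94.2 in control siRNA cells (-0.29). Tnnt2, cardiac troponin T, had 3223 in Phf21a siRNA cells and 1128 in control siRNA cells (1.52). Myod1 (21.2 with Phf21a siRNA and 31.4 with control siRNA), Myog (4.49 with Phf21a siRNA and 5.40 with control siRNA) and Myh6 (0.81 with Phf21a siRNA and 6.53 with control siRNA) were undetected. The 6 brown fat markers summed to 404 in Phf21a siRNA cells and 228 in control siRNA cells. Of these only Ppargc1a was detected, at 324 in Phf21a siRNA cells and 68.6 in control siRNA cells, whereas Ucp1 (2.92 with Phf21a siRNA and 23.3 with control siRNA) and Cidea (4.49 with Phf21a siRNA and 3.12 with control siRNA) were not. The part of other cell types in the Cox7a1 value was not tested.

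Versions known from testis were low or undetected, with 1 exception. Cox8c (Entrez gene 75483), a testis version of subunit 8, had 147 in Phf21a siRNA cells and 242 in control siRNA cells (-0.72 ± 0.62), and a dimmer probe set gave -1.60 (21.4 with Phf21a siRNA and 64.7 with control siRNA). Both probe sets were lower, although the dim one lay within the spread of probe sets of its signal, 1.83. Of 6 testis germ cell markers 0 were detected, and their highest signal was 39.5. Cox6b2 (14.4 in Phf21a siRNA cells and 22.5 in control siRNA cells) and Cox7b2 (1.40 with Phf21a siRNA and 0.87 with control siRNA), also testis versions, were undetected, as was Cox4i2, the lung version of subunit 4, at 34.8 with Phf21a siRNA and 28.7 with control siRNA.

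The assembly factors of complex IV scattered most widely of the 5 groups, by 0.31 on the percentile measure above, against 0.13 to 0.24 in the others. They were also the dimmest group by median signal (2333), and their median local spread was 0.42. By standard deviation the complex IV subunits scattered more (0.69, against 0.44 for the assembly factors). On the deposited scale 7 of 9 lay above 0, where 52.2% of all detected genes did (0 of 9 when scaled to the poly-A controls). The 2 below 0 were Cox10 and Cox15, the consecutive enzymes that turn heme b into the heme a of cytochrome oxidase. Cox15, heme A synthase (Entrez gene 226139), had 372 in Phf21a siRNA cells and 629 in control siRNA cells, a 1.69-fold lower signal (-0.76 ± 0.52). Its other 3 probe sets had 406, 312 and 229 in Phf21a siRNA cells, against 680, 810 and 511 in control siRNA cells. The 4 log2 ratios ran from -1.38 to -0.75, so every probe set was at least 1.5-fold lower, where 16.3% of all detected probe sets were. All 4 end in _x_at or _a_at, so Cox15 could not be measured without probe sets of these kinds. Cox10, heme O synthase, had 509 in Phf21a siRNA cells and 605 in control siRNA cells (-0.25 ± 0.52), and its other probe sets gave -0.13 and -0.88. All 7 detected probe sets of the pair were thus lower, those of Cox10 mostly within the spread; probe sets of a gene share the same 2 RNA samples and are not replicates.

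The remaining assembly factors lay above 0 on the deposited scale and below 0 when scaled to the poly-A controls. Cox20, a chaperone of newly made subunit 2 (Entrez gene 66359), had 3670 in Phf21a siRNA cells and 2242 in control siRNA cells, a 1.64-fold higher signal (0.71 ± 0.41). Its log2 ratio was 0.48 with hybridisation scaling, under 1.5-fold, and -0.0137 with poly-A scaling. Cox18, which inserts subunit 2 into the membrane, had 3019 in Phf21a siRNA cells and 2483 in control siRNA cells (0.28 ± 0.42). Of these 2 only Cox20 exceeded its spread. The copper-related factors Cox11 (1218 with Phf21a siRNA and 915 with control siRNA, 0.41 ± 0.46), Cox19 (2607 with Phf21a siRNA and 2088 with control siRNA, 0.32 ± 0.42) and Cox17 (5090 with Phf21a siRNA and 4820 with control siRNA, 0.08 ± 0.34) were all above 0 and all within their spread. Cox16 had 1575 in Phf21a siRNA cells and 1481 in control siRNA cells (0.09).

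Cox7a2l, also called SCAFI, joins complexes III and IV into supercomplexes. It had 7681 in Phf21a siRNA cells and 5473 in control siRNA cells (0.49 ± 0.31). Its other probe sets had 7750 and 5227 in Phf21a siRNA cells, against 6156 and 3980 in control siRNA cells, so all 3 were higher on the deposited scale, by 0.33 to 0.49. Scaled to the poly-A controls the gene was at -0.24.

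**Figure D4:**
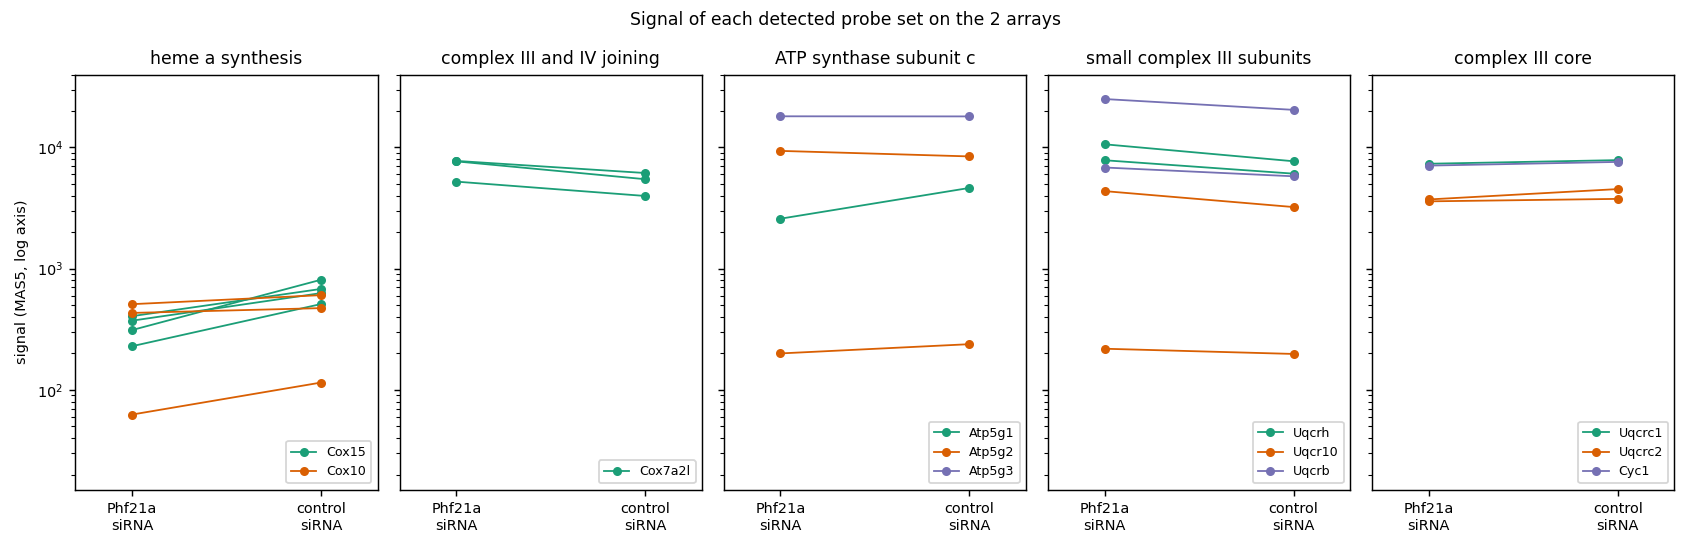
Signal of each detected probe set (y axis, MAS5 signal, log axis) in Phf21a siRNA cells and control siRNA cells, joined by a line, for heme a synthesis, Cox7a2l, the genes of ATP synthase subunit c, and small and core or catalytic proteins of complex III. All 7 lines of Cox15 and Cox10 are lower in Phf21a siRNA cells, all 3 of Cox7a2l are higher on this scale (lower for the gene when scaled to the poly-A controls), and Atp5g1 is lower while the bright probe sets of Atp5g2 and Atp5g3 are level.

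In complex V the genes past 1.5-fold on the deposited scale were Atp5g1, of the ring of subunit c, and Atp5e, described below. Subunit c forms the proton-driven rotor ring, and in mammals Atp5g1, Atp5g2 and Atp5g3 encode the same mature protein with different import sequences. Atp5g1 (Entrez gene 11951) had 2585 in Phf21a siRNA cells and 4637 in control siRNA cells, a 1.79-fold lower signal (-0.84 ± 0.39) on its only detected probe set. Atp5g2 had 9374 in Phf21a siRNA cells and 8440 in control siRNA cells (0.15 ± 0.29, a dim probe set -0.25), and Atp5g3 had 18089 with Phf21a siRNA and 18051 with control siRNA (0.0030 ± 0.29). Of the 3 genes for this product, 1 was lower beyond its spread, where 33% of all detected genes were beyond theirs in either direction. Whether the 3 genes differ from each other cannot be tested with 1 array per group. Atp5g1 stayed at least 1.5-fold lower in all 11 alternatives that measured it, between -1.57 and -0.84.

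The catalytic head of the synthase, F1, was near level except for its smallest subunit. Atp5e, subunit epsilon (Entrez gene 67126), had 5371 in Phf21a siRNA cells and 3571 in control siRNA cells, a 1.5-fold difference (0.59 ± 0.36). Its only probe set ends in _s_at and may match more than 1 transcript. The Atp5e ratio lay right at the limit, and was 0.55 with loess, 0.36 with hybridisation scaling and -0.14 with poly-A scaling. The catalytic subunit Atp5b had 15645 in Phf21a siRNA cells and 15705 in control siRNA cells (-0.0055), and Atp5a1, subunit alpha, had 10466 with Phf21a siRNA and 12072 with control siRNA (-0.21 ± 0.29), with all 3 probe sets below 0. Atp5c1, the rotating gamma subunit (13045 with Phf21a siRNA and 12086 with control siRNA, 0.11), and Atp5d, subunit delta (9113 with Phf21a siRNA and 8379 with control siRNA, 0.12), were within their spread.

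The peripheral stalk holds the head still against the rotor. Atp5o (10985 in Phf21a siRNA cells and 9254 in control siRNA cells, 0.25), Atp5j (12349 with Phf21a siRNA and 10441 with control siRNA, 0.24) and Atp5h (11995 with Phf21a siRNA and 10652 with control siRNA, 0.17) were above 0 on the deposited scale and below 0 when scaled to the poly-A controls. The stalk's membrane subunit Atp5pb was below 0 on both detected probe sets, with 12661 in Phf21a siRNA cells and 14306 in control siRNA cells (-0.18 ± 0.29). None of the 4 exceeded its local spread. Of the 5 small membrane subunits, Atp5l was highest by the probe set standing for each gene, with 8720 in Phf21a siRNA cells and 7243 in control siRNA cells (0.27 ± 0.29). By that measure Atp5j2, Atp5mpl, Atp5k and Atp5md lay between -0.0046 and 0.22. Other probe sets of Atp5k gave 0.18 and 0.32, and those of Atp5j2 gave 0.32 and, on a dim one, -0.75. Atpif1, which inhibits the synthase when it runs backwards, had 5263 in Phf21a siRNA cells and 4601 in control siRNA cells (0.19 ± 0.34).

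Other genes that build these complexes or feed them were examined as well. The list held 45 entries of complex III, IV and V assembly factors, electron transfer flavoproteins and coenzyme Q enzymes, some of them older names of a gene; 38 had a probe set of their own and 35 were detected. Of the 35, 2 were higher by 1.5-fold or more and 2 lower, where 15.1% and 13.9% of all detected genes were. The median of the 35 was 0.15, with 24 above 0, where 52.2% of all detected genes were. Sco2, which delivers copper to cytochrome oxidase, had 876 in Phf21a siRNA cells and 410 in control siRNA cells (1.10 ± 0.52) on a probe set that may match more than 1 transcript. Sco1, a related copper factor named here after its values were seen, had 258 in Phf21a siRNA cells and 348 in control siRNA cells (-0.43 ± 0.57). Cmc1, which in human cells binds newly made subunit 1, had 2669 in Phf21a siRNA cells and 1378 in control siRNA cells (0.95 ± 0.45), but a dim probe set went the other way (-1.11).

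Of the 2 that were lower, Coa5, an assembly factor of complex IV, had 1463 in Phf21a siRNA cells and 3247 in control siRNA cells (-1.15 ± 0.44, second probe set -0.75). Coq2, the enzyme that joins the ring and the tail of coenzyme Q, had 762 in Phf21a siRNA cells and 1867 in control siRNA cells (-1.29 ± 0.47). Both exceeded their local spread. Scaled to the poly-A controls, 17 of the 35 were past 1.5-fold in either direction, where 2.04% of all detected genes were higher and 60.3% lower by that much.

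Probe sets of a member gene agreed in sign about as often as those of other genes. Of the 123 probe sets 102 were detected, and 32 genes had more than 1 of these. In 21 of the 32 genes (65.6%) all detected probe sets had the same sign, where 61.4% of all such genes did. The median distance between the lowest and highest probe set of a gene was 0.17, against 0.44 over all genes. This comparison was not matched for signal, and the members were brighter (median signal 5885, against 662 over all detected genes). The widest was in Sdha, where the probe set furthest off was dim. At the level of probe sets 4 were higher by 1.5-fold or more and 11 lower, where 14.2% and 16.3% of all detected probe sets were, and 4 of the 11 belonged to Cox15.

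The promoters of 4 of the members past 1.5-fold are shown. RefSeq promoter windows of build GRCm38.p6 (250 bases before to 50 after the start) were matched for 47 of the 61 genes, and the 250 bases before the start are printed 5′ to 3′. Capitals mark matches on either strand to the letters searched: the NRF-1 palindrome with any base in its middle, CCGGAAG for GABP, AAGATGGC for YY1, AAGGTCA for ERR and CCAAT. These are known binding letters of factors that act on many mitochondrial genes, apart from CCAAT, a general promoter element. Of the 4 genes the 2 with lower signals, Cox15 (chr19:43753001-43753250, minus strand) and Atp5g1 (chr11:96075632-96075881, minus strand), come first, followed by Atp5e (chr2:174464102-174464351, minus strand) and Cox20 (chr1:178318903-178319152, plus strand).
Cox15: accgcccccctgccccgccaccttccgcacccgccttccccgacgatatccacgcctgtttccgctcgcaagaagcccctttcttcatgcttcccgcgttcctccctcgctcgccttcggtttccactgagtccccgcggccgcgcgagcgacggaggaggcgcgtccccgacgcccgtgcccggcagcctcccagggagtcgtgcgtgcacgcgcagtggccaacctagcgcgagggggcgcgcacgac
Atp5g1: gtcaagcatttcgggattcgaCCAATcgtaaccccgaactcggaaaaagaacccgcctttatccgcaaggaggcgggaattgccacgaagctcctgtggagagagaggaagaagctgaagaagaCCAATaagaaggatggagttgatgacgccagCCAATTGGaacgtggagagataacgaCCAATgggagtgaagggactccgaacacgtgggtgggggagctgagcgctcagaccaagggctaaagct
Atp5e: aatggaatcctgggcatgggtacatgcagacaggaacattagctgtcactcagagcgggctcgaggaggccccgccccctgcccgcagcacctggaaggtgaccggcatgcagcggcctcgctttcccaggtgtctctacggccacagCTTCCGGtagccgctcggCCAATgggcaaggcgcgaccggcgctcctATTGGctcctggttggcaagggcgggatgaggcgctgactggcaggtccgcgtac
Cox20: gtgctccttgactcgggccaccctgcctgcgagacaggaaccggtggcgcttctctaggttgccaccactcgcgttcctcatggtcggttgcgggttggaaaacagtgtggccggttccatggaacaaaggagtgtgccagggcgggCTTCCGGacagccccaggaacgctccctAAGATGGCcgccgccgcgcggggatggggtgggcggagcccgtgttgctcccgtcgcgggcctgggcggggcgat

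The Atp5g1 stretch holds 5 CCAAT matches, 2 of them overlapping on opposite strands, and none of the other letters. The Atp5e stretch holds the GABP letters 102 bases before the start and 2 CCAAT matches, with the ERR letters beyond the stretch shown, and the Cox20 stretch holds the GABP letters 103 bases and the YY1 letters 75 bases before the start. In the Cox15 stretch none of the letters occurs, although the full window holds the GABP letters beyond the 250 bases shown. Over the 51 promoter windows of the 47 genes, 41.2% held the GABP letters, 25.5% the NRF-1 palindrome, 9.8% the YY1 letters, 11.8% the ERR letters and 47.1% CCAAT. Of all 32851 RefSeq promoter windows of that length, those of non-coding genes included, 8.86%, 4.6%, 2.75%, 4.72% and 37.4% did, in the same order. The NRF-1 palindrome with a fixed middle base, which is contained in the looser form, was in 7.84% of the 51 windows and in 0.971% of all windows. A match is a description of the letters and not of a bound site, and an absent match says nothing about a factor.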

How the data were processed

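RNA from 1 sample per group (1 µg) was measured on 1 Affymetrix mouse expression array each. The authors deposited MAS5 signal intensity values on a linear scale, per the submitters' processing notes, which name no version. Groups come from the labels. Only 2 arrays were available, and that number limits the precision. Of 45101 probe sets, 34945 had 1 gene in the platform's annotation, and 0 columns of per-sample values were left unused. From the intensities, log2 ratios, floor, detection limit and local spread were computed as described above. The members, groups, lists and alternatives were chosen with earlier results of these data known. Signals were to be given for each member past 1.5-fold, for the 2 farthest from 0 in each direction per group and for versions of 1 subunit; other members were added after their values were seen. Other pathway genes and markers were named where past 1.5-fold, and further markers where they define a cell type. Alternatives changed the normalization (median centring, quantile, loess, both sets of control RNAs), the floor, the probe set per gene, the filter on low signals and the fold limit. The calculation was tested on simulated data. Tools were Python 3.11.15, numpy 2.4.6 and pandas 2.3.3; loess used statsmodels 0.14.6 and figures matplotlib 3.10.9.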

Additional observations from a re-analysis of the deposited data

How the results depend on the processing

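No paired analysis was possible because each group has 1 array, and no array could be left out. Scaled to the poly-A controls, 0 members were higher by 1.5-fold or more, 29 were lower and 0 lay above 0; medians were -0.61 for all members, -0.56 for complex II, -0.69 for complex III, -0.65 for complex IV subunits, -0.44 for complex IV assembly factors and -0.57 for complex V. Atp5e (-0.14), Cox20 (-0.0137) and Sdhaf4 (-0.13) then changed sign, and 17 other pathway genes passed 1.5-fold. Scaled to the hybridisation controls, 1 member was higher by 1.5-fold or more, Cox7a1 (1.99), whose control signal was under the detection limit. Cox20 (0.48), Sdhaf4 (0.37) and Atp5e (0.36) were under 1.5-fold, and 17 members lay above 0. With this scaling the same medians were -0.11, -0.0648, -0.19, -0.14, 0.0538 and -0.0766. With loess 2 members were higher by 1.5-fold or more and the complex III median was -0.0067. Averaging the probe sets of a gene gave medians of 0.0316 for complex II and 0.0413 for complex V. Without probe sets ending in _x_at, _s_at or _a_at, 1 of 43 measured members was lower by 1.5-fold or more, since Cox15 and Atp5g1 have no other detected probe set. A 2-fold limit left 1 member higher, again Cox7a1, and 0 lower (5.66% and 5.44% of all genes). A 1.2-fold limit gave 15 higher and 4 lower of 57 (32.4% and 28.6% of all genes). Among the counts, group medians and Phf21a, 110 values under alternatives stayed close to those reported (counts within 1.5 times) and 26 moved. The alternatives for Phf21a and the other pathway genes were chosen after seeing the data. The local spread is not the spread between cultures. With 1 array per group, differences below or beyond it cannot be told from variation between cultures.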
